A study of Mus musculus with 21 samples.

Results

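The transcripts of 10 enzymes that write or erase methyl marks on DNA and histones were followed through recovery from exhaustive exercise in mouse quadriceps, the large extensor muscle of the thigh. These were the DNA methyltransferases Dnmt1 and Dnmt3a, the DNA demethylating enzymes Tet1, Tet2 and Tet3, the histone lysine demethylases Kdm5a, Kdm6a and Kdm6b, and the histone methyltransferases Ezh1 and Ezh2. They were picked out of the table by symbol. All 10 were among the 53738 gene symbols of the table, and 9 of them were among the 11819 symbols tested, which had a mean of at least 1 TPM (a level corrected for transcript length and scaled to a common total per library). The muscle came from male C57/Bl6 wildtype mice that were 22 to 26 weeks old. Sedentary mice had performed no exercise, untrained mice ran to exhaustion on a treadmill without previous training, and trained mice did the same after 12 weeks of voluntary wheel running. Exercised mice were sacrificed 0 h, 6 h or 72 h after the bout, which gave 7 groups of 3 bulk RNA libraries, 21 in all. No group of trained mice without the bout was analysed here, so that training itself and the response of trained muscle to the bout cannot be told apart.

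DNA methyltransferases place methyl groups on cytosine: Dnmt1 copies the pattern onto the new strand after replication, whereas Dnmt3a methylates sites that carried no mark. TET enzymes oxidise methylcytosine and thereby open the way to its removal. On histone H3, Ezh1 and Ezh2 are the alternative catalytic subunits of the Polycomb repressive complex PRC2, which methylates lysine 27, a mark of silenced genes. Kdm6a (UTX) and Kdm6b (JMJD3) remove that mark, and Kdm5a removes methylation of lysine 4, a mark of active promoters. TET and these KDM enzymes need 2-oxoglutarate and oxygen, while the methyltransferases use S-adenosylmethionine. Skeletal muscle fibres are postmitotic, and Ezh1 is known as the prevailing PRC2 catalytic subunit of such tissues, Ezh2 as that of dividing cells.

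Both 0 h groups hold 1 library in common: their columns numbered 1 did not differ in any of the 53738 symbols, which left 20 distinct libraries. Which of these groups the shared library belongs to cannot be told from the table. The differences of Kdm6b and Dnmt3a between 0 h and sedentary muscle are therefore given with and without it. Other 0 h values include it unless stated otherwise. The model held its columns as separate libraries and estimated 1 common spread over all groups. P-values of comparisons without a 0 h group therefore rest on the shared library too. Genes of the mitochondrial genome made up 37.7% to 40.6% of TPM at 0 h and 42.2% to 46.9% in sedentary muscle, and the median log2 fold change of all tested genes relative to sedentary muscle was 0.10 in untrained and 0.13 in trained muscle at 0 h. The defining markers of muscle were abundant: the summed level of 6 myofibre genes lay between 49091 and 66594 TPM, and Ckm (muscle creatine kinase) between 13393 and 20184 TPM. The satellite cell marker Pax7 lay between 0.166 and 0.346 TPM, and the neutrophil marker Ly6g was at 0 in every library of 5 groups. In bulk muscle, fewer cells of a type and less RNA per cell cannot be told apart.

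All 10 enzymes were expressed at low to moderate levels. Over the 20 distinct libraries, Ezh1 had the highest mean with 6.55 ± 0.51 TPM (SD), followed by Dnmt3a with 5.55 ± 1.21 TPM and Kdm6b with 3.77 ± 1.08 TPM. Kdm6a (2.49 ± 0.31 TPM), Kdm5a (2.48 ± 0.40 TPM) and Tet2 (2.45 ± 0.50 TPM) lay close together. Below them came Dnmt1 (1.73 ± 0.16 TPM), Ezh2 (1.61 ± 0.48 TPM) and Tet3 (1.46 ± 0.24 TPM), and Tet1 was last with 0.079 ± 0.050 TPM. Ezh1 was higher than 56.0% of the tested genes, and Tet3 than 10.6%. Neighbours in this order were separated in part only. Ezh1 exceeded Dnmt3a in 16 of 20 libraries, Dnmt3a exceeded Kdm6b in 19, Kdm6b exceeded Kdm6a in 20, and Tet2 exceeded Dnmt1 in 19. By contrast, Kdm6a exceeded Kdm5a in 12, Kdm5a exceeded Tet2 in 10, Dnmt1 exceeded Ezh2 in 11 and Ezh2 exceeded Tet3 in 10 libraries. Tet3 exceeded Tet1 in all 20. The steadiest levels were those of Ezh1 and Dnmt1, with a coefficient of variation of 7.80% and 9.36%, whereas Kdm6b and Ezh2 varied most among the tested members, with 28.5% and 29.9%.

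**Figure D1:**
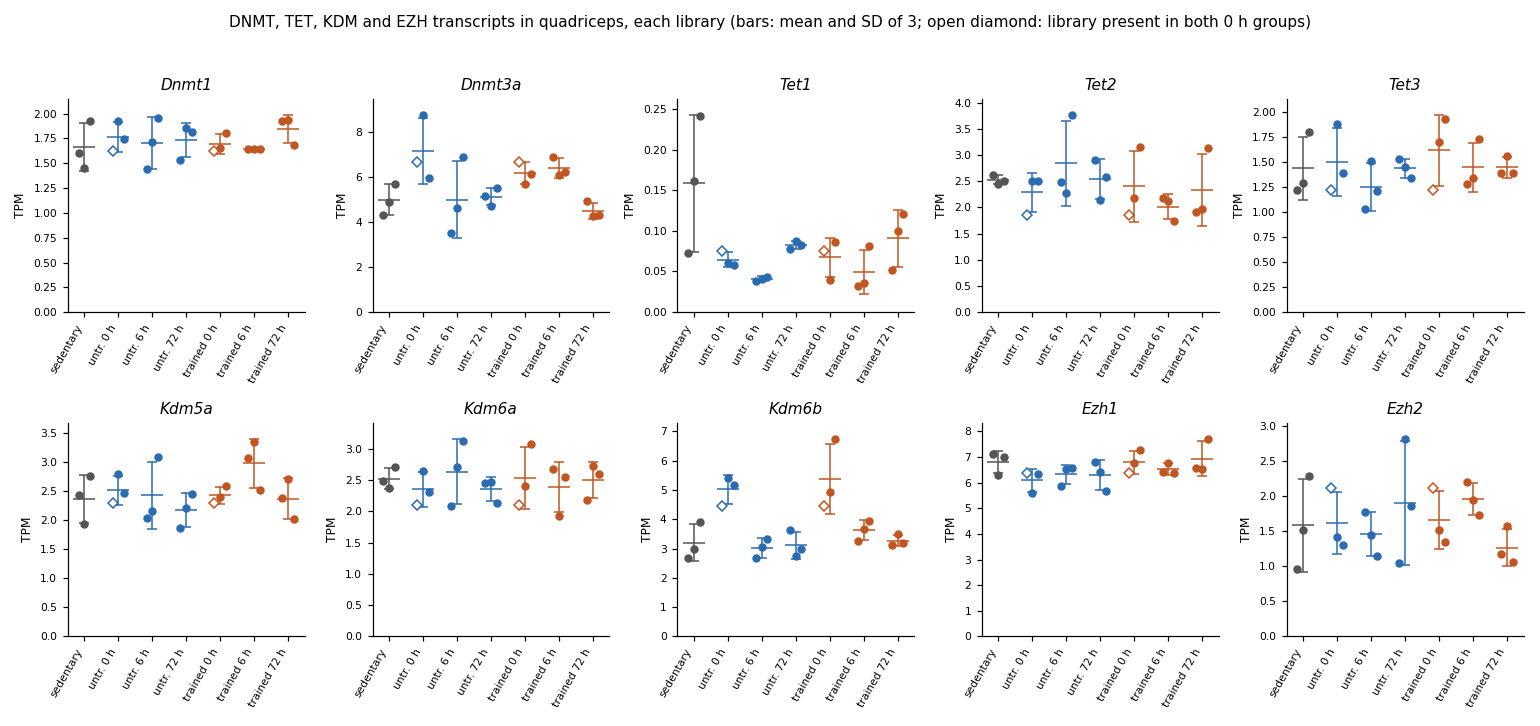
Level of each enzyme (y axis, TPM) in the 3 libraries of each of the 7 groups (x axis), with horizontal bars for the mean, error bars for the SD, and an open diamond for the library present in both 0 h groups. The 0 h libraries of Kdm6b, between 4.47 and 6.75 TPM, lie above every other library of that gene.

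Across 13 comparisons (each exercised group with sedentary muscle, trained with untrained muscle at each time, and successive times within each training state), 3 of 117 tests of a member passed both thresholds, an adjusted p below 0.05 (limma, Benjamini-Hochberg over all tested genes) and a change of at least 1.5-fold. All 3 concerned Kdm6b: it rose at 0 h in untrained and in trained muscle, and fell between 0 h and 6 h in untrained muscle. No member was called in the other 10 comparisons in limma's fit. At an unadjusted p below 0.05 there were 8 such tests in all, 4 of Kdm6b and 4 of Dnmt3a, which is 6.84% of the 117, beside 19.9% of the tests over all genes.

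These counts stand against the share of all tested genes called by the same rule. Relative to sedentary muscle, 1 of 9 members was called at 0 h in untrained muscle, where 3.59% of all genes were called, and 1 of 9 at 0 h in trained muscle, where the share was 3.74%. None of the 9 was called at 6 h, with a share of 4.42% in untrained and 3.85% in trained muscle, nor at 72 h, with 0.00846% and 0.169%. Between trained and untrained muscle none was called, against 0% of all genes at 0 h (143 of them at an unadjusted p below 0.05, and 528 without the shared library, with 0 called), 2.01% at 6 h and 0.245% at 72 h. Between 0 h and 6 h, 1 of 9 was called in untrained muscle, with a share of 4.64%, and none in trained muscle, with 6.46%. Between 6 h and 72 h none was called, with 4.04% in untrained and 3.48% in trained muscle.

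**Figure D2:**
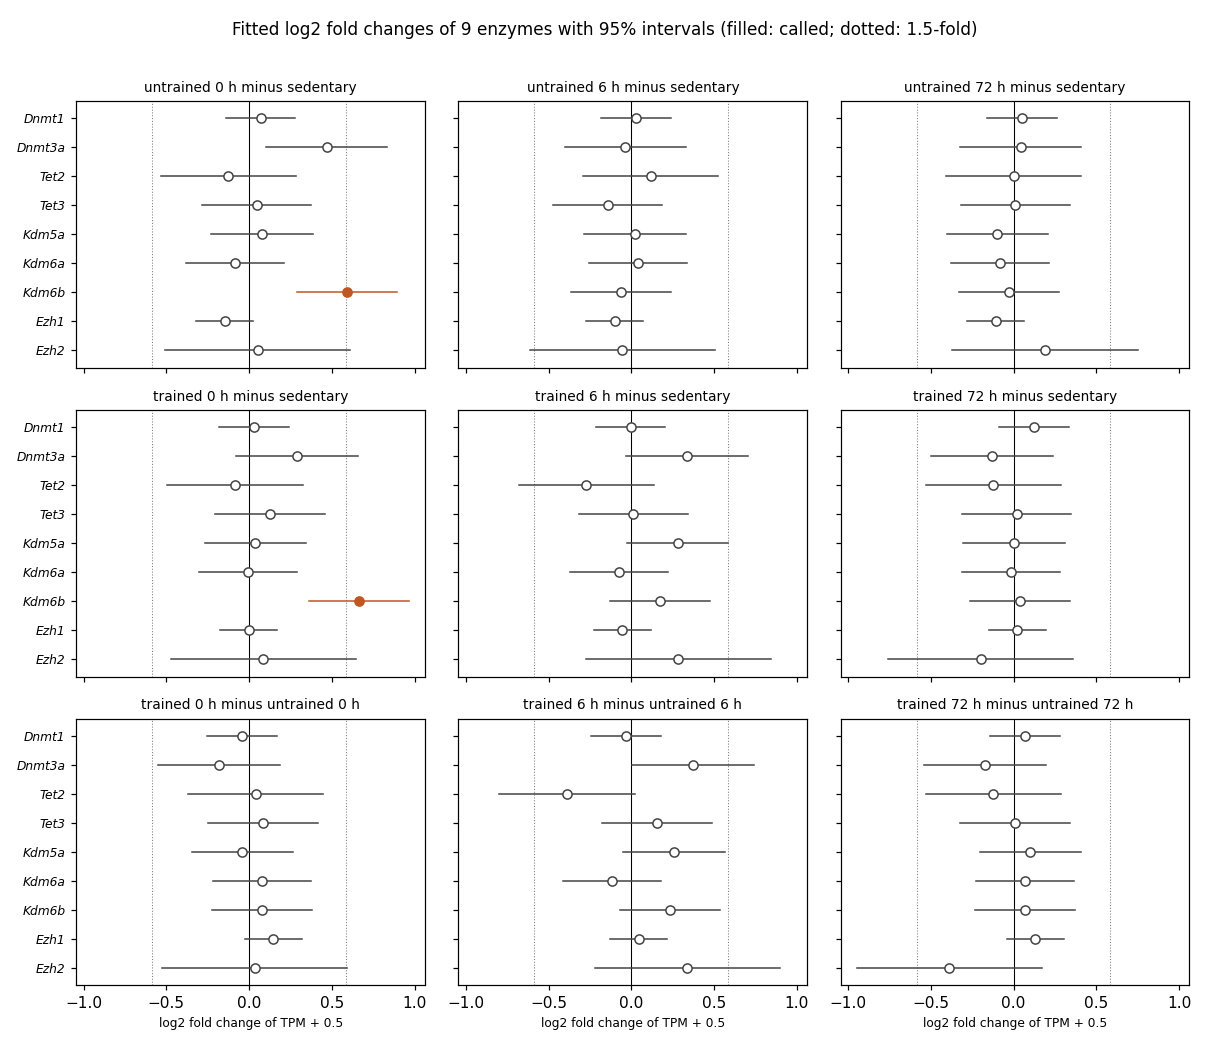
Fitted log2 fold change of log2(TPM + 0.5) (x axis) with its 95% interval for the 9 tested enzymes (y axis) in 9 comparisons, filled where called, with dotted lines at 1.5-fold. Kdm6b at 0 h, with 0.59 in untrained and 0.66 in trained muscle, is the filled point in the panels that compare 0 h with sedentary muscle, and no point is filled between trained and untrained muscle.

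The maintenance methyltransferase Dnmt1 (GRCm39, chromosome 9, 20817945 to 20871184, minus strand, 39 exons in its canonical transcript) hardly varied. Group means ran from 1.65 ± 0.0046 TPM (SD, n = 3) in trained muscle at 6 h to 1.85 ± 0.14 TPM in trained muscle at 72 h. Relative to sedentary muscle (1.60, 1.45 and 1.93 TPM), its log2 fold changes lay between -0.0047 and 0.12 in the 6 exercised groups, with 95% intervals inside -0.22 to 0.33, so that a change of 1.5-fold (0.585 on the log2 scale) lies outside all of them. Between trained and untrained muscle the intervals lay inside -0.25 to 0.28. The 3 libraries of trained muscle at 72 h, with 1.92, 1.94 and 1.68 TPM, lay above those of trained muscle at 6 h, with 1.65, 1.64 and 1.65 TPM, a separation found for 31.2% of all tested genes in that comparison.

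The de novo methyltransferase Dnmt3a (chromosome 12, 3856007 to 3964443, plus strand, 23 exons) spread more widely, but none of its differences passed the test. Sedentary libraries held 4.32, 4.90 and 5.70 TPM. In untrained muscle the values were 6.67, 8.76 and 5.94 TPM at 0 h, 3.49, 4.61 and 6.86 TPM at 6 h, and 5.13, 4.72 and 5.50 TPM at 72 h. Trained libraries had 6.67, 5.68 and 6.12 TPM at 0 h, 6.89, 6.07 and 6.21 TPM at 6 h, and 4.91, 4.27 and 4.29 TPM at 72 h. The untrained 0 h libraries all lay above the sedentary ones, a separation seen in 27.2% of all tested genes, with a log2 difference of 0.47 (95% interval 0.10 to 0.83, limma adjusted p = 0.111), and 0.50 (adjusted p = 0.208) without the shared library. At 0 h in trained muscle the groups overlapped, with a difference of 0.29 (-0.08 to 0.65, adjusted p = 0.295), which was 0.23 (adjusted p = 0.516) without that library. Trained muscle at 6 h also lay wholly above sedentary muscle, as 28.9% of genes were separated there in 1 or the other direction, with a difference of 0.34 (-0.03 to 0.70, adjusted p = 0.247). From there to 72 h the trained libraries did not overlap either, as for 31.2% of all tested genes, with a difference of -0.47 (-0.83 to -0.10, adjusted p = 0.114).

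Trained and untrained muscle at 6 h differed in Dnmt3a by 0.37 (0.01 to 0.74, adjusted p = 0.264), and untrained muscle at 6 h differed from 0 h by -0.50 (-0.87 to -0.14, adjusted p = 0.0712). Untrained 6 h replicate 3 was the highest library of its group, and without it the differences were 0.61 (adjusted p = 0.0317) and -0.74 (adjusted p = 0.0048), which passed both thresholds. When any other of the libraries compared was left out, neither passed, and without untrained 6 h replicate 1 the first was 0.17.

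Tet1 (chromosome 10, 62640349 to 62744775, minus strand) was the lowest of the 10 enzymes, although above 62.6% of all symbols of the table. Sedentary libraries had 0.0727, 0.161 and 0.242 TPM, untrained muscle 0.0576 to 0.0750 TPM at 0 h, 0.0382 to 0.0437 TPM at 6 h and 0.0777 to 0.0873 TPM at 72 h, and trained muscle 0.0398 to 0.0868, 0.0319 to 0.0809 and 0.0523 to 0.121 TPM at the same times. The sedentary group thus had the highest mean and also the widest spread. Its lowest library lay above all untrained 6 h libraries, below those of untrained muscle at 72 h and within the range of the remaining groups. When all symbols above 0 were fitted, the differences of the exercised groups from the same sedentary libraries lay between -0.28 and -0.15. Their 95% intervals were below 0, but only untrained muscle at 6 h had an adjusted p below 0.05 (-0.28, limma adjusted p = 0.0401). All were below 1.5-fold on the log2(TPM + 0.5) scale, which compresses changes of so low a gene.

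Tet2 and Tet3 were higher than Tet1 in every library. Tet2 (chromosome 3, 133169436 to 133250900, minus strand, 11 exons) had 2.62, 2.45 and 2.51 TPM in sedentary muscle. Trained muscle at 6 h had its lowest mean, with 2.19, 2.11 and 1.74 TPM, and untrained muscle at 6 h its highest, with 2.48, 2.28 and 3.77 TPM. The trained 6 h libraries lay below those of untrained muscle at 6 h, where 18.9% of tested genes were separated, and below the sedentary ones, where 28.9% were. The differences were -0.39 (-0.80 to 0.02, adjusted p = 0.299) and -0.27 (-0.68 to 0.14, adjusted p = 0.425), so that neither passed the test, and a decrease of 1.5-fold lies within both intervals. The first was -0.20 (adjusted p = 0.656) without untrained 6 h replicate 3, the library at 3.77 TPM. For Tet3 (chromosome 6, 83339355 to 83436066, minus strand, 12 exons), group means ran from 1.25 ± 0.24 TPM in untrained muscle at 6 h to 1.61 ± 0.36 TPM in trained muscle at 0 h, and all intervals against sedentary muscle lay inside -0.48 to 0.46. Tet3 shares 1512 exonic bases on the opposite strand with Bola3, a gene at a mean of 76.9 TPM, and the library kit does not keep the strand, so that reads from that stretch cannot be told apart. The same holds for Ezh1 (814 bases, Cntnap1 at 1.63 TPM), Kdm5a (634 bases, Ccdc77 at 1.69 TPM) and Ezh2 (94 bases, Cul1 at 30.8 TPM). Dnmt3a and Tet2 share such bases with lncRNA genes.

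Kdm5a and Kdm6a, erasers of opposite kinds of mark, showed no called difference. Kdm5a (chromosome 6, 120341068 to 120421535, plus strand, 28 exons) had 2.43, 1.94 and 2.76 TPM in sedentary muscle and its highest mean in trained muscle at 6 h, with 3.08, 3.35 and 2.52 TPM. Its log2 differences from sedentary muscle lay between -0.10 and 0.28 with intervals inside -0.40 to 0.59. Kdm6a (chromosome X, 18028776 to 18146877, plus strand, 29 exons) had group means between 2.35 ± 0.28 TPM (untrained 0 h) and 2.64 ± 0.52 TPM (untrained 6 h), and its intervals against sedentary muscle lay inside -0.38 to 0.34. A change of 1.5-fold in Kdm6a thus lies outside all of these intervals.

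Kdm6b (chromosome 11, 69289334 to 69304501, minus strand, 23 exons) was the member that moved with exercise. Sedentary libraries held 2.69, 2.99 and 3.91 TPM. Untrained muscle had 4.47, 5.42 and 5.19 TPM at 0 h, 2.67, 3.06 and 3.32 TPM at 6 h, and 3.62, 2.74 and 2.98 TPM at 72 h. In trained libraries it stood at 4.47, 4.92 and 6.75 TPM at 0 h, at 3.27, 3.68 and 3.96 TPM at 6 h, and at 3.14, 3.48 and 3.18 TPM at 72 h. Every 0 h library was thus above every library of the other groups, which overlapped among each other from 2.67 to 3.96 TPM. Of all tested genes, 27.2% had 0 h and sedentary libraries that did not overlap in untrained muscle, and 29.1% in trained muscle.

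In untrained muscle, Kdm6b rose 1.5-fold at 0 h over sedentary muscle, by 0.59 on the log2(TPM + 0.5) scale (SE 0.14, 95% interval 0.29 to 0.89, limma adjusted p = 0.0179). In trained muscle it rose 1.58-fold, by 0.66 (0.36 to 0.97, adjusted p = 0.0077). The rises were 0.66 (adjusted p = 0.0205) and 0.78 (adjusted p = 0.0066) without the shared library, and 0.48 and 0.53 relative to the median of all tested genes. The first of them sits at the fold threshold: it was no longer called without sedentary replicate 1 or 2, or without untrained 0 h replicate 2 or 3 (log2 0.49 to 0.57, adjusted p = 0.0597 to 0.0947). The rise in trained muscle was lost without sedentary replicate 1 (0.56) or trained 0 h replicate 3 (0.50), where the adjusted p stayed below 0.05. Median-of-ratios scaling and a fit with only the groups compared ended both calls, as did rescaling without the mitochondrial genome and the 10 highest genes, with adjusted p = 0.123 in untrained and 0.0815 in trained muscle.

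By 6 h, Kdm6b was back within the sedentary range or close to it. In untrained muscle it fell from 0 h by 0.65 on the log2 scale (interval -0.95 to -0.35, limma adjusted p = 0.0072), with libraries that did not overlap, as for 26.8% of all tested genes, and by 0.73 (adjusted p = 0.0085) without the shared library. The call was lost without untrained 6 h replicate 1 (-0.58, adjusted p = 0.0331). In trained muscle the difference was -0.49 (-0.79 to -0.19, adjusted p = 0.0205), which missed the fold threshold. It was -0.60 (adjusted p = 0.0159) without the shared library, which passed, and relative to the median of all genes, which was -0.15 in this comparison, it was -0.34. The trained 0 h and 6 h libraries did not overlap, a separation seen in 41.1% of all tested genes. At 72 h, the differences from sedentary muscle were -0.03 (-0.33 to 0.27) in untrained and 0.04 (-0.26 to 0.34) in trained muscle.

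Training state made no called difference to Kdm6b. Trained minus untrained muscle gave 0.08 (-0.23 to 0.38) at 0 h, where a library is shared, 0.23 (-0.07 to 0.54, adjusted p = 0.413) at 6 h and 0.07 (-0.23 to 0.37) at 72 h. Without the shared library the 0 h difference was 0.11 (-0.24 to 0.47), so that a difference of up to about 0.47 remains within the interval.

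Other measures moved with the 0 h groups in which Kdm6b was high. The sum of 8 macrophage markers was 49.6 to 54.6 TPM in untrained and 49.6 to 50.1 TPM in trained muscle at 0 h, above the 39.5 to 43.4 TPM of sedentary muscle, but it was also 56.9 to 61.5 TPM in untrained muscle at 72 h, where Kdm6b was at 2.74 to 3.62 TPM. Myofibre markers summed to 60011 to 66594 and 61895 to 66594 TPM at 0 h, against 50187 to 58371 TPM in sedentary muscle. Proliferating cell markers, of which Pcna was the most abundant and Mki67 stayed at or below 0.0593 TPM, gave 12.0 to 16.5 and 12.9 to 16.5 TPM at 0 h, overlapping with 8.99 to 13.8 TPM in sedentary muscle. Endothelial markers lay between 36.9 and 46.1 TPM in untrained and between 39.2 and 43.0 TPM in trained muscle at 0 h, against 43.2 to 52.7 TPM in sedentary muscle. The sums of the fibro-adipogenic, satellite cell, neutrophil and red blood cell lists overlapped with the sedentary ones in untrained muscle at 0 h, and in trained muscle those of satellite cells did not (3.57 to 4.32 against 2.94 to 3.19 TPM). The part of these cell types and of the mitochondrial share in the level of Kdm6b was not tested.

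The genes most like Kdm6b over the 20 distinct libraries, by Pearson's r of log2(TPM + 0.5) among all tested genes, were Kdm6bos (r = 0.936), Zbtb2 (r = 0.929) and Skil (r = 0.921). The points of this description share groups and scaling, and the 0 h libraries stand apart in each of the genes. Since the 3 genes were picked for this likeness in the same libraries, their p-values at 0 h are no independent evidence of a rise. Kdm6bos is a lncRNA gene of 2 exons that lies within Kdm6b on the opposite strand (chromosome 11, 69292293 to 69293540). Of its 900 exonic bases, 286 are exonic in Kdm6b too, and since the libraries do not keep the strand, the transcripts cannot be told apart there. Kdm6bos had 1.16, 1.26 and 1.86 TPM in sedentary muscle and 2.15, 2.74 and 2.31 TPM in untrained muscle at 0 h, and it rose by 0.60 (limma adjusted p = 0.0244), although without the shared library the adjusted p was 0.0503. In trained muscle at 0 h it had 2.15, 1.90 and 2.98 TPM and a difference of 0.56 (adjusted p = 0.0300), just under the fold threshold. Without the shared library that difference was 0.60 (limma adjusted p = 0.0644), past the fold threshold but not called.

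Skil, which encodes the SMAD corepressor SnoN, had 1.16, 1.25 and 1.70 TPM in sedentary muscle. It stood at 3.01, 3.56 and 2.37 TPM in untrained and at 3.01, 3.05 and 3.48 TPM in trained muscle at 0 h. It rose by 0.89 (limma adjusted p = 0.000408) and 0.99 (adjusted p = 0.000154), more than Kdm6b. Without the shared library the rises of Skil were 0.88 (adjusted p = 0.0044) and 1.02 (adjusted p = 0.0013). Zbtb2, a zinc finger protein gene, differed by 0.48 and 0.47 at 0 h (adjusted p = 0.0195 and 0.0205) and stayed under the fold threshold. Without the shared library its differences were 0.51 and 0.49 (limma adjusted p = 0.0537 and 0.0528).

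Ezh1 and Ezh2 did not pass the test in any comparison, but the precision behind that statement differs between them. Ezh1 (chromosome 11, 101081934 to 101117315, minus strand, 21 exons) had 7.11, 6.30 and 7.02 TPM in sedentary muscle, and group means between 6.09 ± 0.44 TPM (untrained 0 h) and 6.94 ± 0.67 TPM (trained 72 h). Its intervals against sedentary muscle lay inside -0.32 to 0.20, the narrowest of the 9 enzymes. Ezh2 (chromosome 6, 47507073 to 47572331, minus strand, 20 exons) had 0.957, 1.52 and 2.28 TPM in sedentary and 1.05, 2.82 and 1.86 TPM in untrained muscle at 72 h, and its intervals reached from -0.76 to 0.84. In trained muscle Ezh2 had 2.20, 1.95 and 1.73 TPM at 6 h and 1.18, 1.57 and 1.06 TPM at 72 h, which did not overlap, as in 31.2% of all tested genes, and the comparison did not pass the test (-0.48, adjusted p = 0.307). For Ezh2 a change of 1.5-fold in either direction therefore lies within the intervals.

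Ratios between related enzymes do not depend on how a library is scaled. Kdm6b exceeded Kdm6a 1.08-fold to 1.45-fold in sedentary libraries, 2.04-fold to 2.25-fold in untrained and 2.04-fold to 2.20-fold in trained muscle at 0 h. At 6 h the ratio was 1.06 to 1.28 in untrained and 1.22 to 1.91 in trained muscle, and at 72 h 1.11 to 1.47 and 1.22 to 1.44. The 0 h libraries thus lay above all others in this ratio as well. Dnmt3a exceeded Dnmt1 2.7-fold to 3.37-fold in sedentary muscle, 3.41-fold to 4.56-fold and 3.38-fold to 4.11-fold at 0 h in untrained and trained muscle, 2.42-fold to 3.50-fold and 3.70-fold to 4.18-fold at 6 h, and 2.54-fold to 3.34-fold and 2.20-fold to 2.55-fold at 72 h. In trained muscle the ratio at 6 h and at 72 h did not overlap, and the 72 h group had the lowest mean of the 7 groups. Ezh1 exceeded Ezh2 in every library, on average 4.44-fold (range 2.27 to 7.42), and Tet2 exceeded Tet3 in every library, on average 1.73-fold (1.01 to 3.11). The ratio of Ezh1 to Ezh2 was 2.92 to 3.68 in trained muscle at 6 h and 4.15 to 7.30 at 72 h, without overlap. How often ratios of other gene pairs separate between groups was not computed. The separations from 6 h to 72 h go with those of Dnmt3a and Ezh2 themselves, given above. Per library, Tet2 was 10.4 to 86.3 times Tet1.

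**Figure D3:**
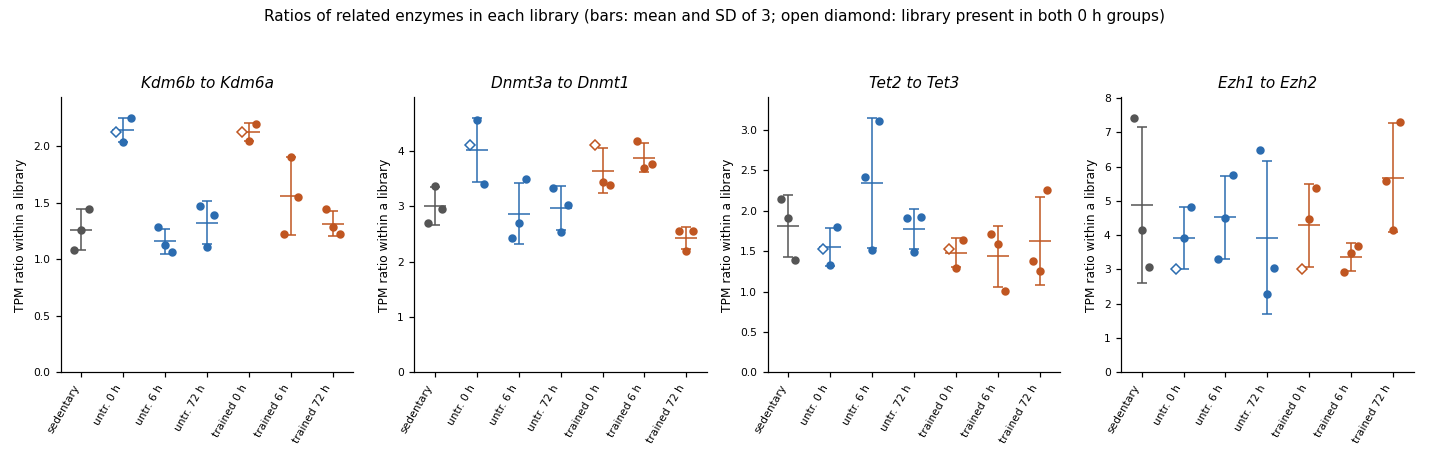
TPM ratio within each library (y axis) for 4 pairs of related enzymes in the 7 groups (x axis), with the mean and SD of 3 libraries and an open diamond for the library present in both 0 h groups. The ratio of Kdm6b to Kdm6a is at least 2.04 at 0 h and at most 1.91 elsewhere.

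The other genes of these pathways were taken from 9 lists with 121 genes. Apart from the members, 111 genes were listed, all of them in the table, and 96 were tested. Of these 96, 7 genes were called in at least 1 comparison, among them Rybp of the PRC1 list, Kdm5c and Kdm2b of the histone demethylases, and Mat2a, Idh1 and Idh2 of the list for methyl donor and 2-oxoglutarate supply. How many of all tested genes were called in at least 1 comparison was not computed, so this count has no background. Shares within single comparisons follow. The share of the 96 called was 3.12% at 0 h in untrained and 2.08% in trained muscle, 4.17% and 2.08% at 6 h, and 0% at 72 h in both, each below the share of all genes given above. At 0 h the median log2 fold change of the 96 was 0.07 in untrained and 0.14 in trained muscle, beside 0.10 and 0.13 for all tested genes.

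No gene was called in 6 of the lists in limma's fit. These were the DNA methyltransferases with UHRF1 and UHRF2 (3 of 6 genes tested), DNA demethylation and base excision (6 of 8), the methyl-CpG readers (9 of 9), PRC2 (10 of 13), the lysine 4 methyltransferases with their COMPASS subunits (20 of 20), and the lysine 9 and lysine 36 methyltransferases (10 of 11). At an unadjusted p below 0.05 these lists gave 7 of 39, 3 of 78, 20 of 117, 18 of 130, 38 of 260 and 12 of 130 tests over the 13 comparisons, each a smaller share than the 19.9% over all genes. Within the list of histone demethylases, 1 of 20 genes rose and 0 fell in each of untrained and trained muscle at 0 h and at 6 h relative to sedentary muscle. At 0 h that gene was Kdm6b, and at 6 h it was Kdm5c. Of all tested genes, 2.97% rose in untrained and 3.39% in trained muscle at 0 h, and 3.53% and 2.41% at 6 h.

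Kdm5c, an eraser of lysine 4 methylation like Kdm5a and encoded on chromosome X, had 2.27, 2.21 and 2.99 TPM in sedentary muscle. At 6 h it had 3.87, 5.69 and 5.19 TPM in untrained and 4.76, 4.18 and 4.30 TPM in trained muscle, a rise of 0.85 (limma adjusted p = 0.000365) and 0.72 (adjusted p = 0.0017). From 6 h to 72 h it fell by 0.63 (adjusted p = 0.0047) and 0.64 (adjusted p = 0.0041), to 2.75, 3.02 and 3.15 TPM and 3.06, 2.51 and 2.43 TPM. These falls slipped just under the fold threshold without untrained 6 h replicate 2 (-0.52) or 3 (-0.58) or untrained 72 h replicate 1 (-0.58), and without trained 72 h replicate 3 (-0.58). A pseudocount of 1 had the same effect on both (-0.562 and -0.564). With only the groups compared, the fall in untrained muscle (limma adjusted p = 0.118) and its rise at 6 h (adjusted p = 0.0952) were not called. At 0 h it was already at 3.58, 3.73 and 4.51 TPM and at 3.58, 3.78 and 3.68 TPM, with differences of 0.57 and 0.49 that missed the fold threshold. Its highest group means were thus at 6 h, and those of Kdm6b at 0 h. Kdm2b, an eraser of lysine 36 methylation that also belongs to a variant PRC1 complex, took the opposite course in trained muscle, with 2.01, 2.14 and 2.10 TPM at 0 h, 1.12, 1.22 and 1.10 TPM at 6 h and 1.90, 2.24 and 2.32 TPM at 72 h. It fell by 0.65 (adjusted p = 0.0027) and rose again by 0.68 (adjusted p = 0.0034). The fall was under the fold threshold with median-of-ratios scaling (-0.52), with rescaling without the mitochondrial genome and the 10 highest genes (-0.57) and with a pseudocount of 1 (-0.52), and the rise with a pseudocount of 1 (0.55). In untrained muscle Kdm2b also fell from 0 h to 6 h, by 0.48 (adjusted p = 0.0271), which missed the fold threshold. Trained minus untrained muscle at 6 h gave -0.15 (-0.43 to 0.13). From 6 h to 72 h untrained muscle rose by 0.59 (adjusted p = 0.0088), a call lost without untrained 6 h replicate 1 (0.44) or 3 (0.57) and without untrained 72 h replicate 2 (0.52). This call was also lost with a pseudocount of 1 (0.48), median-of-ratios scaling (0.58), sample quality weights (0.53) and only the groups compared (limma adjusted p = 0.2).

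Rybp, a subunit of variant PRC1 complexes, was at 0.894, 0.787 and 1.09 TPM in sedentary muscle. At 0 h it was at 1.98, 2.18 and 1.82 TPM in untrained and at 1.98, 1.78 and 1.93 TPM in trained muscle. It rose by 0.81 (limma adjusted p = 0.0066) and 0.76 (adjusted p = 0.0103), the latter at 0.73 (adjusted p = 0.0503) without the shared library. At 6 h trained muscle was back at 0.989, 0.889 and 0.913 TPM, a fall from 0 h by 0.74 (adjusted p = 0.0056). Untrained muscle still held 1.24, 2.82 and 1.47 TPM at 6 h, 0.67 above sedentary muscle (adjusted p = 0.0193), which was 0.39 without its replicate 2. That call was also lost without sedentary replicate 1 (adjusted p = 0.0591) or 2 (adjusted p = 0.0773), with only the groups compared (adjusted p = 0.317) and with a pseudocount of 1 (0.53). The one in trained muscle at 0 h was lost without sedentary replicate 2 (limma adjusted p = 0.0522). In the PRC1 list, 1 of 15 tested genes rose in each of these 3 comparisons with sedentary muscle, and that gene was Rybp. Of all tested genes, 2.97% rose in untrained and 3.39% in trained muscle at 0 h, and 3.53% in untrained muscle at 6 h.

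Among the genes that supply the cosubstrates, Mat2a, which makes S-adenosylmethionine, had the largest rise among the called genes of the lists at 0 h. It went from 34.2, 32.3 and 36.6 TPM in sedentary muscle to 67.0, 79.7 and 69.7 TPM in untrained and 67.0, 62.9 and 66.8 TPM in trained muscle, 2.08-fold (limma adjusted p = 9.08e-06) and 1.90-fold (adjusted p = 3.47e-05). At 6 h it was at 54.3, 62.2 and 46.2 TPM in untrained muscle, still 1.56-fold higher (adjusted p = 0.0011, and log2 0.54, under the threshold, without replicate 2), and at 47.7, 44.5 and 56.4 TPM in trained muscle, where 0.52 (adjusted p = 0.0066) missed the fold threshold. Idh2, a mitochondrial isocitrate dehydrogenase that makes 2-oxoglutarate, fell in untrained muscle from 100.3, 118.9 and 136.1 TPM to 78.4, 82.4 and 72.8 TPM at 0 h, by 0.59 (adjusted p = 0.0317, and 0.102 without the shared library). Leaving out any library of that comparison except sedentary replicate 1 ended this call (adjusted p = 0.0523 to 0.098). At 6 h untrained muscle was at 79.8, 57.2 and 59.2 TPM, a fall of 0.86 relative to sedentary muscle (adjusted p = 0.0022, and 0.0897 with only the groups compared). In trained muscle Idh2 was not called, with -0.51 (-0.84 to -0.17, limma adjusted p = 0.0546) at 0 h and -0.30 (adjusted p = 0.267) at 6 h. Trained minus untrained muscle gave 0.09 (-0.25 to 0.42) at 0 h and 0.56 (adjusted p = 0.0549) at 6 h, neither called.

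Idh1, its cytosolic counterpart, differed between the training states at 6 h. Trained muscle had 7.88, 8.21 and 9.85 TPM and untrained muscle 5.48, 6.30 and 4.92 TPM, while sedentary muscle had 5.24, 5.36 and 5.83 TPM. The rise over sedentary muscle was 0.61 (limma adjusted p = 0.0237), lost without sedentary replicate 1 or 2 or trained 6 h replicate 3 (adjusted p = 0.069 to 0.101), and the difference between trained and untrained muscle 0.59 (adjusted p = 0.0472).

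**Figure D4:**
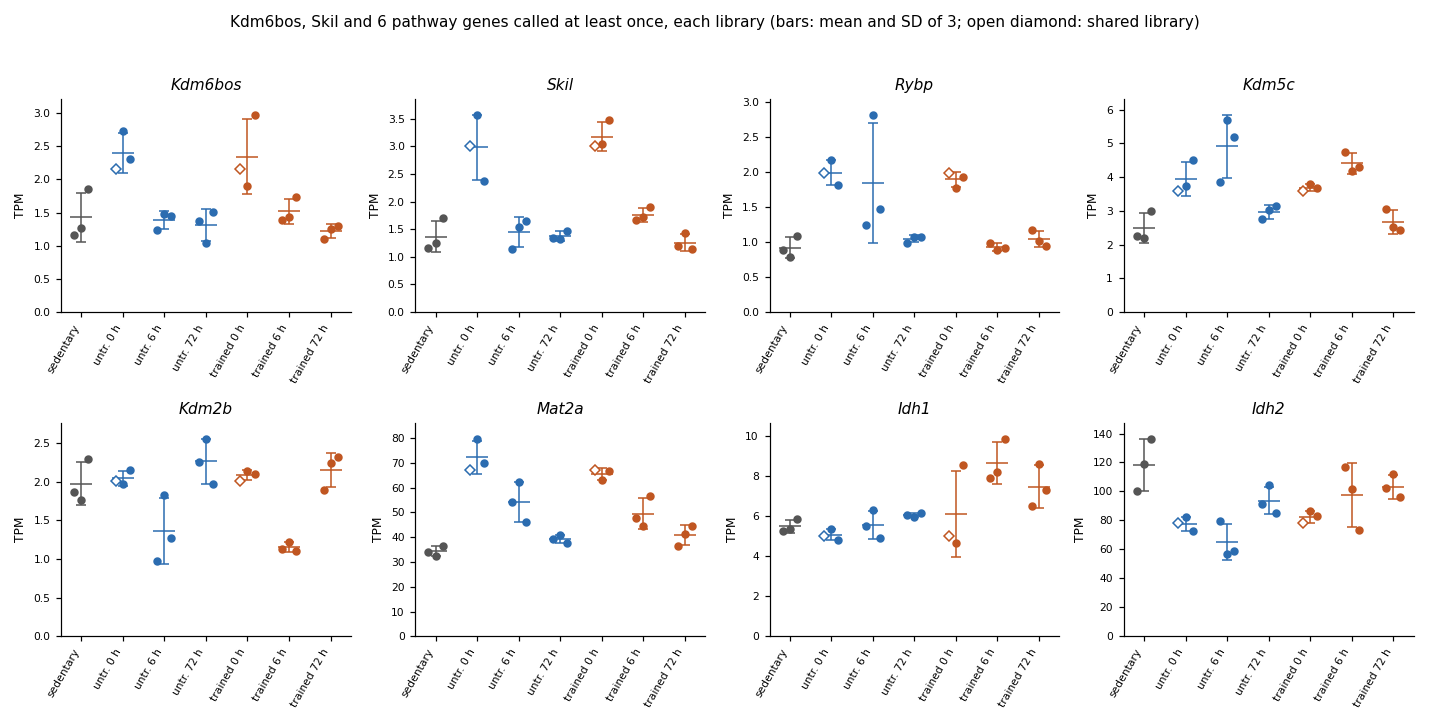
Level (y axis, TPM) of Kdm6bos, Skil and 6 pathway genes called at least once in the 3 libraries of each group (x axis), with the mean and SD and an open diamond for the library present in both 0 h groups. Mat2a is at 62.9 TPM or more at 0 h and at 36.6 TPM or less in sedentary muscle, and Kdm5c has its highest group means at 6 h.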

How the data were processed

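Quadriceps RNA of 7 groups of 3 libraries was sequenced from TruSeq RNA v2 libraries, which do not keep the strand. The deposited values are TPM per gene symbol, which the authors made from reads on GRCm39, and the submitters' processing notes list STAR 2.7.9, Salmon 1.5.0 and DESeq2 3.16. TPM keeps no read depth, so the depth behind each value is unknown and no counting interval or detection limit can be given, and precision rests on the spread between libraries. The labels number the replicates without naming animals, and p-values measure the spread between these libraries.

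TPM values were taken as deposited and transformed to log2(TPM + 0.5). Symbols whose TPM averaged 1 or more across all 21 libraries entered 1 model with limma 3.58.1 (R 4.3.3), with a variance trend and 14 residual degrees of freedom (12 without the shared library). P-values were adjusted within a comparison (Benjamini-Hochberg), and calls required an adjusted p under 0.05 together with a 1.5-fold change (log2 0.585). Fitted folds are those of TPM + 0.5. For genes at a few TPM they are smaller than the folds in TPM, so that a gene under the threshold can exceed 1.5-fold in TPM. Intervals cover 95%. With 3 libraries against 3, an exact permutation test cannot go below p = 0.1, and none was used. The procedure was tested on simulated data with independent libraries and planted changes well above 1.5-fold. That test covers neither the shared library nor changes near the fold threshold. Positions and exons came from the GENCODE annotation of GRCm39.

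The members and lists were chosen with earlier results of these data known. The text names all members, from each list the called genes of a comparison (at most 5), the 3 genes most like a called member, and cell type markers, and 1 called gene is not reported here. The alternatives were other pseudocounts, filters, scalings, variance models, libraries and thresholds, a model with only the groups compared and a replicate block. Same-numbered libraries of different groups did not deviate together in every pair (r between -0.115 and 0.134), so the numbers were not taken to pair them.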

Additional observations from a re-analysis of the deposited data

Results flagged for a closer look

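Among the listed genes, 2 differed between trained and untrained muscle at the same time after the bout, a difference tested directly. Both were at 6 h, where 2.08% of the 96 listed genes tested were called, beside 2.01% of all tested genes. At 6 h, Rybp was lower in trained muscle than in untrained muscle, with a log2 difference of -0.6545 (95% interval -1.01 to -0.30, limma adjusted p = 0.0378) and 3 of 3 trained libraries below all untrained ones. Of all tested genes, 18.9% had libraries separated in 1 or the other direction in this comparison. The difference rested on untrained 6 h replicate 2, at 2.82 TPM beside 1.24 and 1.47 TPM, and was -0.37 (adjusted p = 0.0942) without it. The call was also lost without any of the trained 6 h libraries (adjusted p = 0.0762 to 0.101), without the shared library (adjusted p = 0.0542) and with a replicate block (adjusted p = 0.0530). Only the groups compared (limma adjusted p = 0.384), no filter (adjusted p = 0.0725) and a pseudocount of 1 (-0.52) ended it too.

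At 6 h, Idh1 was higher in trained muscle than in untrained muscle, with a log2 difference of 0.593 (0.25 to 0.93, limma adjusted p = 0.0472) and 3 of 3 trained libraries above all untrained ones. Such a separation, in either direction, was seen in 18.9% of all tested genes. The call was lost when any of the 6 libraries was left out (0.50 to 0.68, adjusted p = 0.0663 to 0.166), and it held under 5 of 12 other settings. Leaving out the shared library was among the settings that ended it (limma adjusted p = 0.0542). Over all alternatives the adjusted p ran from 0.0197 to 0.196.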

How the results depend on the processing

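No result reversed. The call of Kdm6b at 0 h over sedentary muscle in untrained muscle was lost with a pseudocount of 1 (log2 0.53), median-of-ratios scaling (0.48), rescaling without the mitochondrial genome and the 10 highest genes (0.47) and only the groups compared (0.59, adjusted p = 0.115). That in trained muscle was lost under the last 3 of these (0.53, 0.53 and 0.66, adjusted p = 0.157 in the last). The fall from 0 h to 6 h in untrained muscle was lost with a pseudocount of 1 (-0.58), median-of-ratios scaling (-0.57) and only the groups compared (-0.65, adjusted p = 0.0569). In each of these cases the number of members called went from 1 to 0. With a mean of at least 5 TPM, Kdm6b was not tested and 0 members were called. From 0 h to 6 h in trained muscle it went from 0 to 1 without the fold threshold (-0.49) and without the shared library (-0.60). Leaving out 1 library at a time gave 0.49 to 0.72 for Kdm6b at 0 h in untrained muscle, 0.50 to 0.80 in trained muscle and -0.73 to -0.58 for its fall in untrained muscle, with 0 to 1 members called at 0 h and between 0 h and 6 h in trained muscle, 0 to 2 between 0 h and 6 h in untrained muscle, and 0 to 1 between trained and untrained muscle at 6 h.

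The replicate numbers did not pair the libraries. With a replicate block, Kdm6b kept its 3 calls (0.59, 0.66 and -0.65, adjusted p = 0.0100, 0.0044 and 0.0039), and counts of called genes stayed within 1.5 times, while Rybp and Idh1 between trained and untrained muscle at 6 h were no longer called (adjusted p = 0.0530 and 0.0526).

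Counts over all tested genes moved by more than 1.5 times as follows. A mean of at least 5 TPM, which tests fewer genes, gave for untrained against sedentary muscle 218 at 0 h, 309 at 6 h and 0 at 72 h, for trained muscle 225 at 0 h and 254 at 6 h, and 134 between trained and untrained muscle at 6 h. From 0 h to 6 h it gave 279 and 359, and from 6 h to 72 h 290 and 254, in untrained and trained muscle. Only the groups compared gave 220 and 10 in untrained muscle at 6 h and 72 h, 262 and 264 in trained muscle at 0 h and 6 h, 27 between trained and untrained muscle at 6 h, and 276 and 218 from 0 h to 6 h and from 6 h to 72 h in untrained muscle. Without the fold threshold the counts at 0 h and 6 h were 882 and 1119 for untrained and 1107 and 1227 for trained muscle, with 539 and 49 between trained and untrained muscle at 6 h and 72 h, 1377 and 2971 from 0 h to 6 h, and 1069 and 1089 from 6 h to 72 h. At 72 h, sample quality weights gave 4 in untrained and 83 in trained muscle and 164 between them. No filter gave 7 in trained muscle and 15 between trained and untrained muscle. In trained muscle at 72 h, a pseudocount of 1 gave 12, median-of-ratios scaling 38, rescaling 32 and leaving out the shared library 32. Leaving out 1 library gave 0 to 4 in untrained and 0 to 17 in trained muscle at 72 h, and 0 to 3, 141 to 400 and 4 to 33 between trained and untrained muscle at 0 h, at 6 h and at 72 h. The cause of these moves was not tested.

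For the called genes of the lists, which were run under the same alternatives by a choice made after seeing the data, 287 values stayed on their side of the thresholds and 77 lost the call. Only part of these losses is named above. Since TPM keeps no depth, how far counting error limits Tet1 and other low genes cannot be stated.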
